A study of Saccharomyces cerevisiae with 14 samples.

Results

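The comparison set yeast whose histone H3 lacked residues 1 to 28, the amino-terminal tail, against its wild type. It covered 8 of the 14 arrays of the study, chosen by their titles: 4 of the tail deletion, titled H3del(1-28) and called H3del here, and 4 of the H3 wild type, called H3WT. In both strains H3 came from a plasmid marked with LEU2, and both were harvested in mid-log growth from complete synthetic medium, CSM, made without leucine and uracil. The remaining 6 arrays were of the H4 tail deletion, H4del(2-26), and its own wild type, whose plasmid carried TRP1. Their values are given only where the H3 and H4 deletions are compared. They also enter every fit of all 14 arrays, where they share in the estimate of the spread, the signal filter and the offset. The strains are described as congenic. The sources used here give nothing more of their genotype, mating type or number of clones, and do not say whether replicate arrays came from separate cultures. The p-values therefore measure only how far these arrays scatter, and that scatter may be technical.

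Histone H3 is one of the 4 core histones, and its tail reaches out of the nucleosome. It carries the lysines that the acetyltransferase Gcn5 and the methyltransferase Set1 modify. In budding yeast the tail is also a contact for the silencing proteins Sir3 and Sir4, which keep genes near telomeres and at the silent mating-type loci quiet, and for the corepressor Tup1. Tup1 is recruited to glucose-repressed, a-specific and DNA damage genes among others. These are background and not results of the arrays.

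Each array gave a signal, a linear intensity, for 9275 yeast probe sets, of which 6492 were bright enough to be tested. Signals had been scaled to nearly the same level, with 2% trimmed means of 1501 on every array. Spearman correlations lay between 0.970 and 0.992 within a group and between 0.949 and 0.980 across the groups. Replicates 1 and 2 of both groups were hybridized on 1 day, replicate 3 on another and replicate 4 on another, so that each day held both groups in equal number. The actin probe sets, whose 3 prime to 5 prime ratio tracks RNA quality, gave ratios of 2.89, 2.61 and 2.74 for replicates 1, 2 and 4 of H3del against 1.95, 2.15 and 1.94 in H3WT, and 1.54 against 1.56 on the day of replicate 3. The same ratio for the TATA-binding protein was 4.12, 3.94, 3.84 and 4.94 in H3del replicates 1 to 4 and 4.20, 2.47, 1.30 and 3.21 in H3WT, so it was apart on the day of replicate 3. The 10 control probe sets for ribosomal RNA were 1.30 higher in H3del on the log2 scale. The part of RNA quality in the results was not tested. Values within the day of replicate 3 are given beside some of the main results. On that day the actin ratios differed least, but those of the TATA-binding protein were apart. These values therefore do not check for RNA quality.

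The H3 genes HHT1 and HHT2 share their probe sets. One of these gave signals of 30121, 30296, 30284 and 23438 in H3del replicates 1 to 4 and 26610, 26352, 27564 and 22390.4 in H3WT replicates 1 to 4, and the groups overlapped. Its log2 fold change (H3del minus H3WT) was 0.15 ± 0.13 (limma's standard error, used throughout), with an adjusted p of 0.602 in limma. Whether its probes cover the deleted residues is unknown here, so it does not check the labels. No core histone gene with a probe set of its own passed the threshold, an adjusted p of 0.05. The H2B genes HTB1 and HTB2 had -0.19 ± 0.16 and -0.30 ± 0.17, and HHO1, the linker histone, -0.17 ± 0.20. HTZ1, the H2A variant, had -0.41 ± 0.20, at an adjusted p of 0.283 that the day block brought to 0.0306, and CSE4, the centromeric H3, 0.40 ± 0.22. HHF1 and HHF2, which encode H4 and have a probe set in common, had 0.47 ± 0.20 (adjusted p = 0.208), with overlapping groups.

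Taken as sums, markers of haploid alpha cells were bright in both strains and those of a cells dim. The 4 alpha-specific markers summed to between 28577 and 35578 on the H3WT arrays and between 17066 and 21311 on the H3del arrays. Most of the H3del sum was MF(ALPHA)1, at 15157 to 19560.5. On the H3del arrays SAG1 gave 1022 to 1362, STE3 420 to 518 and MF(ALPHA)2 262 to 330. The a-cell markers MFA1 and BAR1 gave 177 to 471 and 228 to 393 there. The 6 markers of a cells summed to 579 to 857 in H3WT and 972 to 1443 in H3del, and none was at 0, with a lowest signal of 29.7. The 7 markers of haploid as against diploid cells summed to 7085 to 11758 in H3WT and 4632 to 6579.8 in H3del. In a bulk sample fewer cells of a type and less RNA per cell cannot be told apart.

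More transcripts were higher than lower in H3del, and the largest increases were in FDH1, YNR064C, SPO75 and FRM2 and the largest decreases in the alpha-cell genes MF(ALPHA)2, SAG1 and STE3. In limma, with values given from here on as log2 fold changes with their standard errors, 498 of 6492 probe sets (7.67%) passed the threshold, 338 higher (5.21%) and 160 lower (2.46%). Of the higher ones 208 had risen at least 2-fold and 34 at least 4-fold, against 56 and 7 of the lower ones. The arrays of the groups did not overlap in 471 of the 498, while 14.8% of all tested probe sets did not overlap. All 498 had the same sign within each of the 3 hybridization days, which held for 53.7% of all tested probe sets. The 498 were called for a large difference against the spread of these same arrays. Their separation and common sign largely follow from that choice and are not a further result. A fit that took the day as a block called 1338 (20.6%), with 732 higher (11.3%) and 606 lower (9.33%). One that took the replicate number as a block called 1045 (16.1%), with 606 higher (9.33%) and 439 lower (6.76%). Both held all 498. Leaving out single arrays of any of the 4 groups gave from 330 calls without H3del replicate 1 to 567 without H4WT replicate 3. Of 119 named genes past the threshold, 30 lost their call in at least 1 of these 14 fits, at adjusted p up to 0.154, and kept their direction. These were AVT2, BNA1, BNA2, COS4, DAL3, DAL82, DAN1, FUR1, GAL10, GCV1, GIP1, GLG2, HPA3, HXT2, MRPL31, OPI3, PAU23, PAU3, PCL2, PET18, PHO3, PIR3, RAD54, RED1, SIT1, STE6, SUL2, TNA1, URA3 and VTC4. Without the 4 arrays of replicates 1 and 2 only 61 passed, 51 higher and 10 lower.

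The tested probe sets were also divided by their mean log2 signal over the 8 arrays into 5 bins of equal size. In the dimmest bin 151 of 1299 were higher and 20 lower, in the next 71 and 38, then 56 and 37, then 38 and 43, and in the brightest 22 and 22. With the day block the counts from the dimmest bin to the brightest were 258 and 77, 171 and 132, 144 and 124, 108 and 168, and 51 and 105. In both fits increases outnumbered decreases in the dimmest 3 bins, and in the brightest bin decreases were as many or more. The filter and the bins use means that include the H3del arrays, so a gene's own change helps to place it. A dim gene also has little room to fall. The imbalance is therefore in part set by the filter and the floor. With the filter at the 50th percentile of signal 137 were higher and 113 lower. Among the 2783 probe sets too dim for the main test, 197 were higher and 9 lower in a fit of all probe sets, in which 7.44% passed, 5.66% higher and 1.78% lower. On these scales an offset of 16.9 was added to every signal, so the log2 fold change of a dim probe set is smaller than the ratio of its signals.

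**Figure D1:**
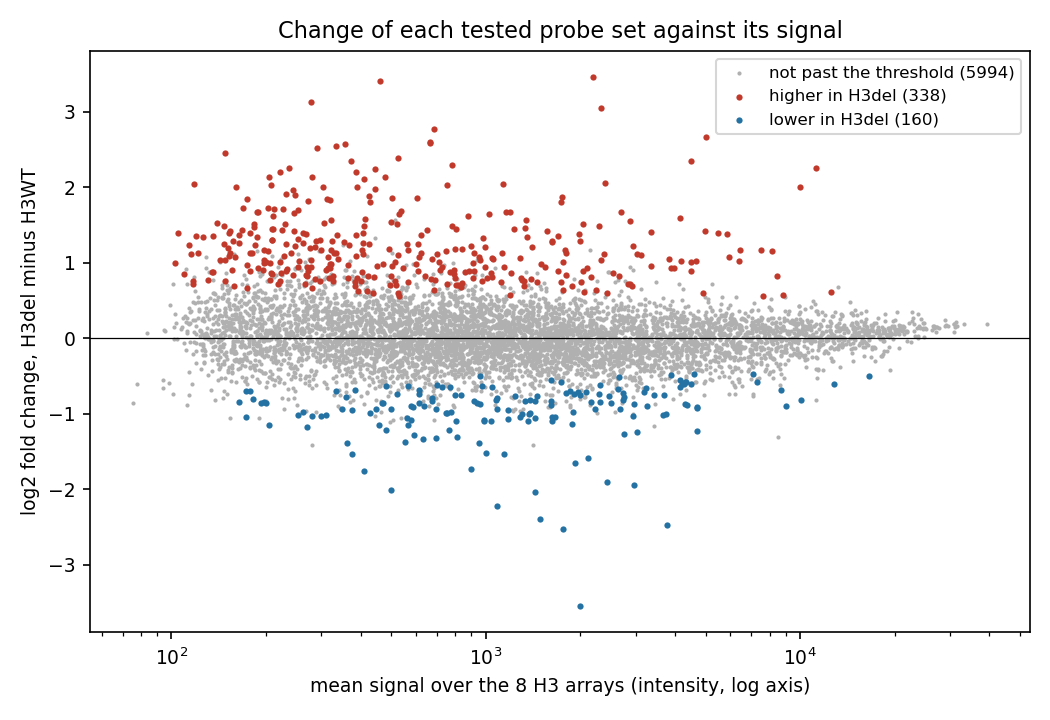
Log2 fold change (H3del minus H3WT) of the 6492 tested probe sets against their mean signal over the 8 arrays on a log axis, with the 338 higher and 160 lower ones in colour. Increases crowd towards the left, where 151 of the 1299 dimmest probe sets were higher and 20 were lower.

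The largest increase was in FDH1, which encodes formate dehydrogenase. Its brightest probe set gave signals of 3833, 3602, 4037 and 4649.5 in H3del and 457, 272, 305 and 391 in H3WT, an 11-fold increase that reads 3.46 ± 0.17 on the log2 scale (limma adjusted p = 1.1e-08). Another FDH1 probe set gave 2.78, and the last lay near the offset in both groups and was not tested. YNR064C, an epoxide hydrolase, stood at 809, 602, 1054 and 951 in H3del against 102, 43.4, 55 and 65.2 in H3WT (3.40 ± 0.28). Every H3del array was at least 5 times as bright as the brightest H3WT array for both genes. SPO75, needed for sporulation, had 466, 598, 473 and 508 in H3del and 45.1, 36, 47.5 and 43.9 in H3WT, a log2 fold change of 3.13 ± 0.18 with an adjusted p of 3.37e-08. FRM2, a nitroreductase-like protein, gave 4586, 4413, 3711 and 3955 against 526, 527, 376 and 531 (3.05 ± 0.18). These differences were also present on the day of replicate 3, at 3.66 for FDH1, 3.90 for YNR064C, 2.93 for SPO75 and 3.25 for FRM2.

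The rest of the 15 largest increases in singly annotated genes had varied roles. SNZ1 and SNO1, neighbours on chromosome XIII that act in vitamin B6 synthesis, had signals of 7554 to 10214 against 1126 to 1609.8 and of 852 to 1577 against 158 to 201. DAK2, a dihydroxyacetone kinase, had 848 to 1564 against 130 to 246. MPC3, a subunit of the mitochondrial pyruvate carrier, had 472 to 703 against 89.2 to 140.1, and MLS1, which makes malate in the glyoxylate cycle, 1035 to 1690.2 against 196 to 302. Their log2 fold changes were 2.67, 2.60, 2.59, 2.35 and 2.30 in that order. ATR2, a relative of a drug exporter, rose by 2.26 ± 0.23, ATO2, of a family of ammonium and acetate transporters, by 2.24 ± 0.44, and SHC1, a sporulation activator of chitin synthase, by 2.20 ± 0.18. SPS2, a spore wall protein, rose from 15.5 to 60.1 to 177 to 319, and YAR068W and CPP3, of unknown role here, rose 5.74-fold and 5.09-fold. All 15 had been chosen for the absence of overlap between the groups, so their separation is not a further result.

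**Figure D2:**
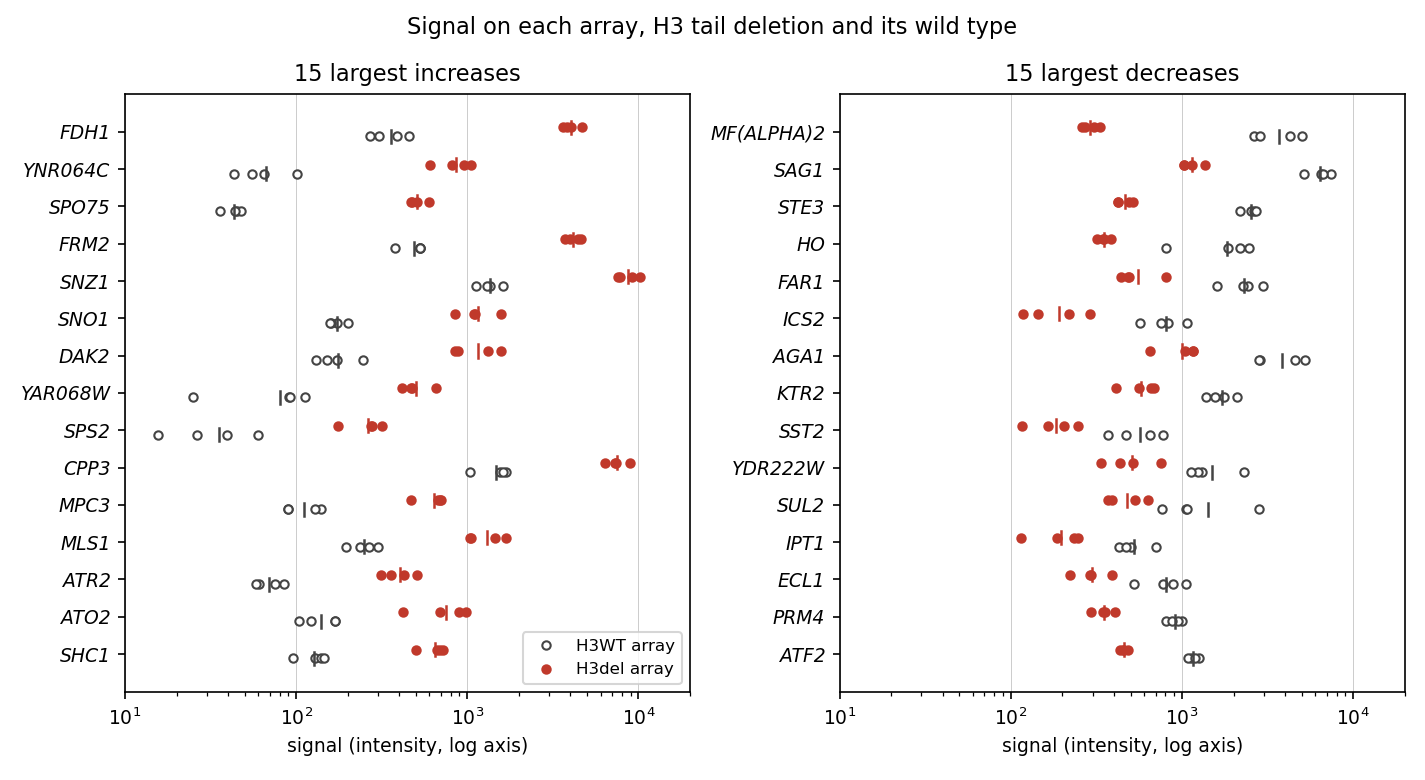
Signal of the 15 genes with the largest increase (left) and decrease (right) on each H3del array (filled) and H3WT array (open), on a log axis, with a bar at each group's mean. The genes were chosen for groups that do not overlap, and the widest gap on the right is that of MF(ALPHA)2, with 262 to 330 in H3del against 2643 to 5036 in H3WT.

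The 5 largest decreases were in genes of mating and mating type. MF(ALPHA)2, a gene of the alpha-factor pheromone, had signals of 262, 271, 304 and 329.7 in H3del and 4288, 5036, 2643 and 2860.4 in H3WT, a log2 fold change of -3.55 ± 0.21 (limma adjusted p = 3.37e-08). SAG1, the alpha-agglutinin of the cell surface, had 1022, 1148, 1027 and 1362 against 6467, 7428, 6615 and 5154, or -2.47 ± 0.17. STE3, the receptor for a-factor, had 422, 491, 420.1 and 518 against 2538, 2625, 2705 and 2179.9, or -2.40 ± 0.18. In each of these 3 genes the brightest H3del array lay below the dimmest H3WT array. The main alpha-factor gene, MF(ALPHA)1, gave 16271, 15157, 19560.5 and 16184 against 20059.7, 20489, 20057 and 18383, groups that overlapped and did not pass the threshold (-0.24 ± 0.13, adjusted p = 0.347). The 4 alpha-specific genes thus gave 0 higher and 3 lower, with a median of -2.44, beside 4.39% higher and 2.6% lower and a median of -0.01 over all 5121 tested genes. Within the days of replicates 1 and 2, replicate 3 and replicate 4 that median was -2.56, -2.65 and -1.97.

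The a-specific genes, which alpha cells repress, were dim, and 1 of 4 tested rose. STE6, the exporter of a-factor, had 215, 226, 196 and 230.3 in H3del and 98.7, 129.7, 138 and 163 in H3WT and rose by 0.66 ± 0.19 (adjusted p = 0.0466). BAR1, the protease that degrades alpha-factor, gave 393, 379, 228 and 386 against 251, 294, 52.1 and 149.7 (1.02 ± 0.36, adjusted p = 0.111, and 0.00505 with the day block). MFA1, an a-factor gene, gave 445, 471, 253 and 177 against 153, 132, 145 and 202 (0.93 ± 0.30, adjusted p = 0.0817, and 0.028 with the day block). The H3del and H3WT arrays overlapped for BAR1 and MFA1. None fell, the median of the 4 was 0.80, and MFA2, the other a-factor gene, had 0.16 ± 0.29, which turns to -0.052 under quantile normalization. The other 3 members, AGA2, ASG7 and STE2, were too dim to be tested. In the fit of all probe sets AGA2 (0.77 ± 0.19, adjusted p = 0.0191) and ASG7 (0.88 ± 0.23, adjusted p = 0.0313) rose and STE2, the alpha-factor receptor, had 0.24 ± 0.19. HMRA1, the a1 gene of the silent locus HMR, gave 25, 20.7, 29.7 and 46.4 in H3del and 26.7, 7.6, 18.1 and 16.3 in H3WT, which overlapped (adjusted p = 0.503). The alpha genes of the mating-type locus share their probe sets with the silent copies. The sets of MATALPHA1 had -0.67 ± 0.22 and -0.46 ± 0.21 and those of MATALPHA2 -0.77 ± 0.27 and -0.42 ± 0.15. None passed, at adjusted p of 0.0757, 0.239, 0.104 and 0.111, which became 0.00738, 0.0765, 0.0361 and 0.035 with the day block.

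Haploid-specific and pheromone-induced genes fell in part. Of 11 haploid-specific genes 3 fell and none rose, with a median of -0.62, and 7 fell with the day block, in which 10.3% of all genes rose and 10.1% fell. HO, the endonuclease that switches the mating type, had 345, 319.7, 350.3 and 384 in H3del and 1843, 2186, 809 and 2468 in H3WT (-2.22 ± 0.38). FAR1, which arrests the cycle after pheromone, had 486, 490.4, 441 and 808 against 2414, 2268, 1607 and 2955 (-2.03 ± 0.36), and STE12, the transcription factor of the response, had -0.94 ± 0.20. The groups did not overlap for these 3 genes. Of 17 tested pheromone-induced genes 6 fell and none rose, with a median of -0.41. AGA1, the anchor of a-agglutinin, gave 1158, 1044, 652 and 1157 against 4551, 5216, 2855 and 2818 (-1.91 ± 0.24), and SST2, which dampens the signal, 116, 164, 206 and 248 against 652, 368, 467 and 771 (-1.53 ± 0.34). PRM4 and PRM1, pheromone-regulated membrane proteins, had -1.33 ± 0.19 and -1.27 ± 0.28, and KAR4, a transcription factor of karyogamy, -1.01 ± 0.22. GIC2, an effector of the polarity GTPase Cdc42, had -0.67 (adjusted p = 0.0451) and is named after its value was seen. On the day of replicate 3 the medians of the haploid and pheromone lists were -0.43 and -0.29.

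Further large decreases lay outside mating. ICS2, of unknown role here, had signals of 217, 289, 143 and 118 in H3del and 826, 751, 571 and 1069 in H3WT (-2.02 ± 0.27). KTR2, a mannosyltransferase, had 412, 557, 686 and 659 against 1557, 1761, 2099 and 1386 (-1.54 ± 0.22). IPT1, which makes the most complex sphingolipid of yeast, fell by 1.38 on the log2 scale, ATF2, an alcohol acetyltransferase, by 1.31, ECL1, named for chronological lifespan, by 1.37 and YDR222W, of unknown role here, by 1.52. SUL2, a sulfate permease, gave 388, 369, 528 and 629.9 against 1048, 1074, 2817 and 767 (-1.39 ± 0.32, adjusted p = 0.0134). Its within-day differences of -1.45, -2.38 and -0.28 were uneven, with the largest on the day of replicate 3, which held the brightest H3WT signal.

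Among genes that yeast uses on non-fermentable carbon several rose in H3del, with both strains in the same medium. Of 12 tested genes of gluconeogenesis and the glyoxylate cycle 7 rose and none fell, with a median log2 fold change of 0.84. Over all 5121 tested genes 4.39% rose and 2.6% fell, with a median of -0.01. The counts of the lists that follow in the main fit stand beside the same shares. ADH2, the alcohol dehydrogenase that uses ethanol, had 6518, 6766, 4670.3 and 7027 in H3del and 2295, 2243, 1652 and 1981 in H3WT (1.60 ± 0.18, adjusted p = 3.8e-05). FBP1, a key enzyme of gluconeogenesis, had 242, 270.4, 320.5 and 231 against 120.4, 99.2, 97.4 and 94.5 (1.23 ± 0.20). PCK1, which opens that route from oxaloacetate, had 487, 509, 756 and 515 against 201, 296, 267 and 232 (1.12 ± 0.18). The groups did not overlap in these 3 genes. Beside MLS1, JEN1, the lactate permease, had 0.95 ± 0.22. MDH2, the cytosolic malate dehydrogenase, had 0.89 and IDP2, the cytosolic isocitrate dehydrogenase, 0.80. ICL1, which produces the glyoxylate that MLS1 uses, had 0.29 (adjusted p = 0.325) and ACS1, an acetyl-CoA synthetase, -0.30 (adjusted p = 0.493), so neither passed. On the day of replicate 3 the median of the list was 1.12. MDH2, IDP2, ICL1 and ACS1 are named after their values were seen.

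Peroxisomal fatty acid oxidation also gave increases alone. Of 19 tested genes 7 rose and none fell, beside 4.39% and 2.6% of all genes. Their median was 0.59, with within-day medians of 0.68, 0.41 and 0.43. POT1, the thiolase, gave 801, 726, 456 and 906 in H3del and 183, 164, 127 and 192 in H3WT (1.98 ± 0.22). CRC1 and CAT2, the mitochondrial carnitine carrier and the carnitine acetyltransferase, rose by 1.71 ± 0.21 and 1.59 ± 0.22. CTA1, the peroxisomal catalase, had 1.40 ± 0.25 and YAT2, another carnitine acetyltransferase, 1.12 ± 0.21. The other members that rose were SPS19, a dienoyl-CoA reductase (1.52), and PXA2, a subunit of the fatty acid importer (1.14), named after their values were seen. Of 9 hexose transporters and sensors 2 rose, HXT5 from 223, 202, 204 and 193 in H3WT to 871, 822, 589 and 923 in H3del (1.86 ± 0.22) and HXT2 by 1.05 ± 0.30, whose groups overlapped. In the fit of all probe sets, in which 5.13% of all genes rose and 2.32% fell, 5 of 13 such genes rose.

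In the main fit mitochondrial genes of respiration gave calls in the tricarboxylic acid cycle and none in the respiratory chain. Over all tested genes 4.39% rose and 2.6% fell, or 10.3% and 10.1% with the day block. The counts of the cycle lay above these shares of increases in both fits. Of 16 tricarboxylic acid cycle genes 2 rose, CIT3, a minor mitochondrial citrate synthase, from 76.9, 90, 104 and 89.5 in H3WT to 539.6, 574, 258 and 515 in H3del (2.13 ± 0.28), and ACO1, the aconitase, by 0.82 ± 0.17, and 5 with the day block. Of 33 nuclear respiratory chain genes none passed in either direction, with a median of -0.15 and a range from -0.51 to 0.56. With the day block 1 of them was higher and 4 were lower. In limma at an unadjusted p under 0.05, 3 passed, while 19.8% of all tested genes did. Of 19 glycolysis genes none passed either, with a median of 0.13, 1 passing with the day block and 3 at an unadjusted p under 0.05. Of 16 genes of trehalose and glycogen 1 rose, near the share of all genes. It was GLG2, a glycogenin that starts glycogen chains (0.88 ± 0.21). With the day block 4 rose and 3 fell. Of the 12 maltose and galactose genes tested MAL33, the activator of maltose genes, and GAL10, the galactose epimerase, rose, by 0.80 ± 0.18 and 0.98 ± 0.24, and 6 with the day block.

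Of 10 genes of the seripauperin and DAN/TIR families, which encode cell wall proteins made under low oxygen or cold, 6 rose and none fell. Over all tested genes 4.39% rose and 2.6% fell. The median of the 10 was 0.73, and 0.95, 0.43 and 0.75 on the 3 days. TIR3 gave 4525, 4353, 4777 and 3559.9 in H3del and 1649, 1189, 1579.8 and 1429.8 in H3WT (1.55 ± 0.16), and DAN1 319, 323, 302 and 232 against 84.3, 86.3, 63.7 and 88.1 (1.67 ± 0.46). Neither gene's groups overlapped. TIR1 rose by 1.03 ± 0.22, PAU23 by 1.10 ± 0.25 and PAU3 by 0.73 ± 0.20, while PAU4, at 0.72, is named after its value was seen. The probe sets of these PAU genes can take up signal of near-identical seripauperins, so they are not separate measurements. The flocculin FLO11, which mediates adhesion, had 1262, 1275, 1117 and 1085 against 435, 363, 406 and 494 (1.45 ± 0.20). FLO10, of the same family, had 462, 457, 512 and 526 against 193, 162, 134 and 238 (1.37 ± 0.21), and its 6 other probe sets gave -0.06 to 0.75. No groups overlapped in either gene. HPF1, a cell wall mannoprotein, rose from 4524, 3854, 4675 and 3006 in H3WT to 17988, 17875, 13373 and 14869.7 in H3del (2.00 ± 0.16).

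Among genes of cell separation after division and of the boundary of M and G1, decreases prevailed. Of 15 tested 5 fell and 1 rose, beside 2.6% and 4.39% of all genes. Their median was -0.43, with within-day medians of -0.39, -0.40 and -0.40. CTS1, the chitinase that cuts the septum, gave 6600.4, 7785, 6986 and 7760.5 in H3del and 12837, 12515, 14160.3 and 11914 in H3WT (-0.82 ± 0.12). SCW11, a glucanase-like wall protein, gave 767, 659, 848 and 746 against 1580, 1562, 1647 and 1604 (-1.07 ± 0.17). PCL9, a cyclin of the kinase Pho85, had -1.08 ± 0.18, and DSE2, a daughter-specific glucanase, -0.75 ± 0.16. AMN1, an antagonist of mitotic exit, fell by 1.00 on the log2 scale. The groups did not overlap in any of the 5. The member that rose was PIR3, a wall glycoprotein, at 1.40 ± 0.37 (adjusted p = 0.0265), with overlapping groups. Of 15 genes of G1 and S phase 1 fell, the G1 cyclin PCL2 (-0.78 ± 0.21), and 2 rose and 4 fell with the day block. Of 13 genes of G2 and M none passed. With the day block 2 were higher, beside 10.3% of all genes, and 2 passed at an unadjusted p under 0.05, beside 19.8% of all genes.

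Some meiotic and sporulation genes rose in these cultures at mid-log phase. Of 28 such genes 14 were bright enough to be tested, and of these 6 rose and none fell, with a median of 0.53. A gene that is dim in the wild type can reach the test through its signal in H3del, so the fit of all probe sets is the fuller count. In it 13 of 28 rose and none fell, with a median of 0.59, beside 5.13% higher, 2.32% lower and a median of 0.01 over all 5656 genes. Besides SPO75 and SPS2, the spore wall kinase SPS1 had 483, 400.5, 254 and 293 in H3del and 100.4, 119.8, 73.4 and 87.9 in H3WT (1.71 ± 0.21). SGA1, the glucoamylase of sporulation, gave 3114, 3296, 1767 and 2878 against 783, 704, 602 and 810 (1.88 ± 0.21), and RED1, of the meiotic chromosome axis, 1.51 ± 0.40. SPS4, named after its value was seen, had 0.88. The groups overlapped for RED1 and not for SPO75, SPS2, SPS1 and SGA1.

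DNA damage and redox genes gave further increases. Over all tested genes 4.39% rose and 2.6% fell. Of 12 tested damage response genes 3 rose and none fell, with a median of 0.26. HUG1, an inhibitor of ribonucleotide reductase that is switched on by replication stress, gave 5169, 4783, 3005 and 2671 in H3del and 972, 869, 901 and 812 in H3WT (2.06 ± 0.19, adjusted p = 6.73e-06). RNR3, a damage-induced subunit of that enzyme, gave 624, 504, 559 and 636 against 239.6, 235, 202 and 251 (1.26 ± 0.22), and RAD54, of recombination repair, had 0.76 ± 0.21. None of the 3 had overlapping groups. Of 19 oxidative stress genes 6 rose and 2 fell. Besides FRM2 these were OYE3, an NADPH oxidoreductase (2.14 ± 0.20), the aryl-alcohol dehydrogenase relatives AAD10 (1.45 ± 0.24) and AAD4 (1.02 ± 0.19), the glutathione transferase GTT2 (1.13 ± 0.19) and the sulfiredoxin SRX1 (1.80). The decreases were in GPX2, a glutathione peroxidase (-0.75), and TRR1, the thioredoxin reductase (-0.48), which like SRX1 are named after their values were seen. Of 18 general stress genes 1 rose, near the share of all genes, and 3 with the day block. The 1 was SSA3, an Hsp70 chaperone, from 86.5, 105, 46.2 and 156 in H3WT to 440.3, 332, 313 and 494 in H3del (1.90 ± 0.31). Of 20 heat shock chaperones none passed. With the day block 1 was higher and 3 were lower, beside 10.3% and 10.1% of all genes, and 3 passed at an unadjusted p under 0.05, beside 19.8%. Of 10 genes of drug resistance the exporter PDR10 rose, by 1.34 ± 0.22.

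Among genes of vitamin and cofactor supply both directions occurred. BIO3, BIO4 and BIO5, which lie next to each other on chromosome XIV and serve biotin synthesis and uptake, had signals of 876 to 1448, 2367 to 2567 and 206 to 251 in H3del against 520.1 to 668, 785 to 1399 and 84.6 to 109 in H3WT. Their log2 fold changes were 1.00 ± 0.18, 1.17 ± 0.20 and 1.07 ± 0.17, with adjusted p between 0.000915 and 0.00245. No groups overlapped. Of 12 tested thiamine genes 3 rose, THI4, of thiazole synthesis (1.29 ± 0.24), PET18 (0.95 ± 0.23) and PHO3, a thiamine-repressible phosphatase (0.62 ± 0.16). In NAD synthesis BNA4 gave 4220, 4430.3, 3382 and 4388 in H3del and 1378, 1384, 1132 and 1213 in H3WT (1.67 ± 0.18). BNA2 rose by 0.76 ± 0.20 and BNA1 fell (-0.65 ± 0.19), although all 3 act in the kynurenine route. TNA1, the nicotinic acid permease, rose by 0.61 ± 0.18, which made 3 higher and 1 lower of 12, with 7 of the 12 below 0 and a median of -0.20.

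Genes of nutrient regulons changed in both directions, but not every list held more calls than all genes did. Over all tested genes 4.39% rose and 2.6% fell, or 10.3% and 10.1% with the day block. PHO5, the secreted acid phosphatase long used to study nucleosomes at a promoter, gave 6534, 6983, 7641 and 7938 in H3del and 2896, 2577, 2559.6 and 2804 in H3WT (1.42 ± 0.20). PHO89, a phosphate transporter, rose by 0.89 ± 0.20 and VTC4, which makes polyphosphate, fell (-0.69 ± 0.19), so that 3 of 13 phosphate genes rose, PHO3 among them, and 1 fell, or 5 with the day block. Of 21 iron genes 5 rose and 2 fell, or 6 and 4 with the day block. FIT3, a wall mannoprotein that holds siderophore iron, had 7538, 7277, 9042 and 7589 against 4694, 3226, 2144 and 2418 (1.39 ± 0.25). FIT1, its relative, had 299, 301, 269.6 and 353 against 107, 111, 112 and 123 (1.30 ± 0.18). FRE2, a ferric reductase, had 1.23 ± 0.25, and none of these 3 genes had overlapping groups. SIT1, a siderophore transporter, rose by 1.04 ± 0.26 and FRE4, another reductase, is named after its value of 0.92 was seen. The decreases were in MRS4, a mitochondrial iron carrier (-0.93 ± 0.20), and FET4, a low-affinity metal transporter (-0.83 ± 0.18). DAL1 and DAL4, the allantoinase and the allantoin permease, are neighbours on chromosome IX and rose by 1.68 ± 0.19 and 1.24 ± 0.21. DAL3, of the same route, rose by 1.16 ± 0.27 and DAL82, an activator of these genes, fell (-0.65 ± 0.19), in a list of 20, of which 6 rose and 2 fell with the day block. Of 44 amino acid synthesis genes under Gcn4, SER3, of serine synthesis, rose (1.30 ± 0.27) and GCV1, of glycine cleavage, fell (-0.85 ± 0.22), and 3 rose and 4 fell with the day block. For these 44 genes the counts lie below the shares of all genes in both fits. The decreases of the allantoin list with the day block lie near that share. FUR1, of uracil salvage, fell (-0.58 ± 0.16). The plasmid marker LEU2 gave 23817 to 27657 in H3del and 18828 to 21601 in H3WT, groups that did not overlap, without passing (0.27 ± 0.34, adjusted p = 0.722). Of the other strain markers, LYS2 had -0.0062 ± 0.19, which turns to 0.055 under quantile normalization, HIS3 0.34 ± 0.14 and ADE2 0.41 ± 0.23, and none passed. With the day block HIS3 (adjusted p = 0.0189) and ADE2 (0.0353) did. TRP1, the marker of the H4 plasmids, had -0.35 ± 0.24 (adjusted p = 0.47). URA3, a gene of uracil synthesis of unstated genotype in these strains, gave 204, 227, 189 and 176 against 119.9, 135, 106 and 106 and rose by 0.69 ± 0.19 (adjusted p = 0.0371).

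Phospholipid genes gave decreases alone. All 16 tested genes of phospholipid and inositol synthesis were below 0, with a median of -0.44, and 3 fell, or 9 with the day block. INO4, which with Ino2 activates these genes, gave 593, 651, 662 and 713 in H3del and 1037, 1267, 1143 and 1248 in H3WT (-0.82 ± 0.16). EPT1, an ethanolamine phosphotransferase, gave 1335, 1169, 1215 and 1379 against 2109, 2528, 2778 and 2669 (-0.97 ± 0.20), and OPI3, a phospholipid methyltransferase, had -0.50 ± 0.13. No groups overlapped in the 3. INO1, the inositol synthase, had -0.17 (adjusted p = 0.627) and is named after its value was seen. Of 24 ergosterol genes 2 fell, ERG28 (-1.01 ± 0.16) and ERG26 (-0.89 ± 0.16), which work in the same demethylation complex, and 8 with the day block.

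In the main fit the abundant housekeeping lists held few calls. Of 81 cytosolic ribosomal protein genes with probe sets of their own none passed (median 0.08), and 2 were higher and 3 lower with the day block. Of 33 proteasome genes none passed, with a median of -0.15 and 24 below 0. With the day block 8 of them were lower, a larger share than the 10.1% of all genes. Of 37 ribosome biogenesis genes none passed, with 1 higher and 1 lower under the day block. Among 56 mitochondrial ribosomal protein genes MRPL31 fell (-0.80 ± 0.20) and 50 were below 0. With the day block 9 were lower, also above the share of all genes. At an unadjusted p under 0.05 in limma 6 of the cytosolic ribosomal, 7 of the proteasome and 1 of the biogenesis genes passed, beside 19.8% of all genes. Of the mitochondrial ribosomal genes 7 did. None of 22 tested enzymes and silencing factors that act on or bind the H3 tail passed. With the day block 1 was higher, beside 10.3% of all genes, and 4 passed at an unadjusted p under 0.05, near the share of all genes. They ranged from -0.43 for CYC8, the partner of Tup1, to 0.57 for JHD2, a histone demethylase, and SIR2, SIR3 and SIR4 had 0.46, 0.53 and 0.08. These 5 genes are named after their values were seen.

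**Figure D3:**
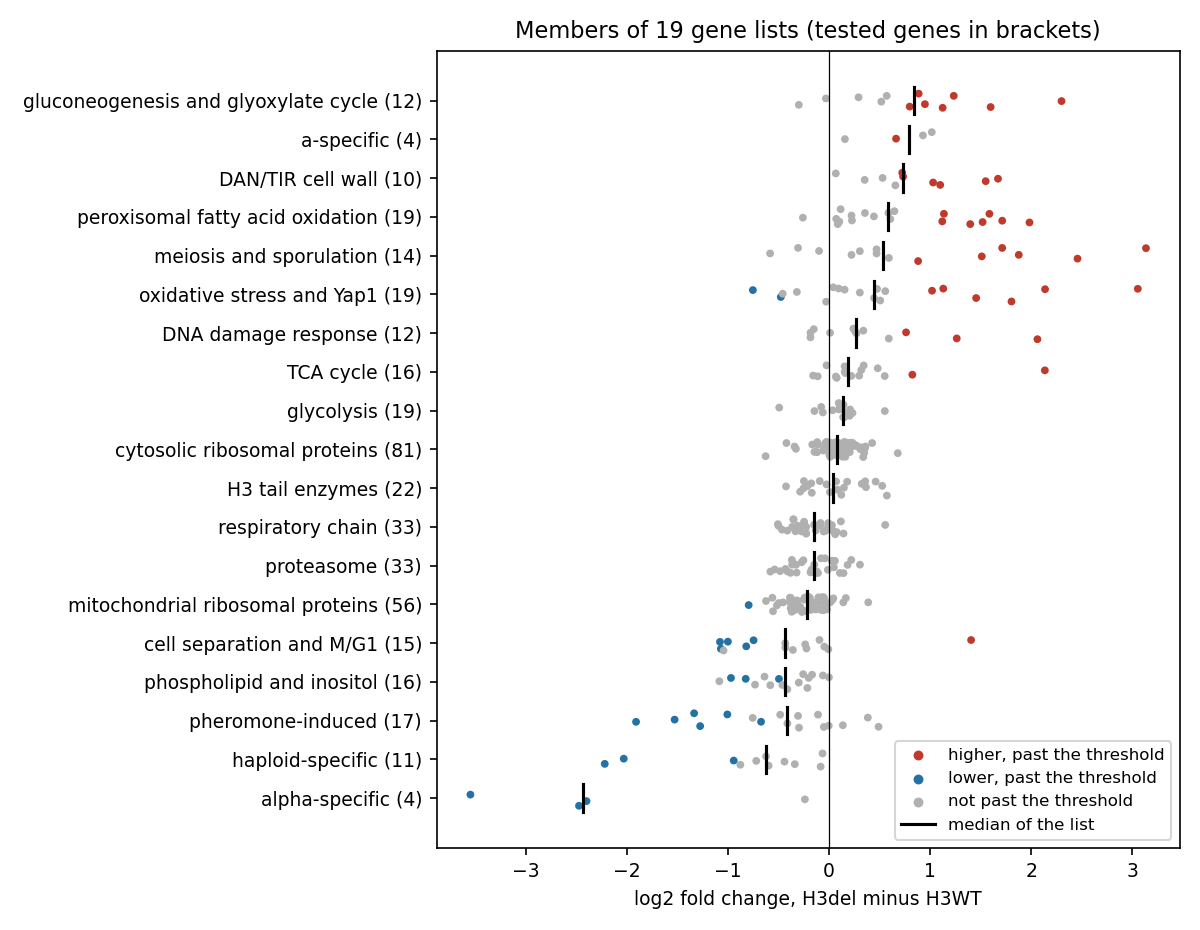
Log2 fold change of every tested member of 19 gene lists, with members past the threshold in colour and a black bar at each list's median. The medians run from -2.44 for the 4 alpha-specific genes to 0.84 for the 12 genes of gluconeogenesis and the glyoxylate cycle.

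**Figure D4:**
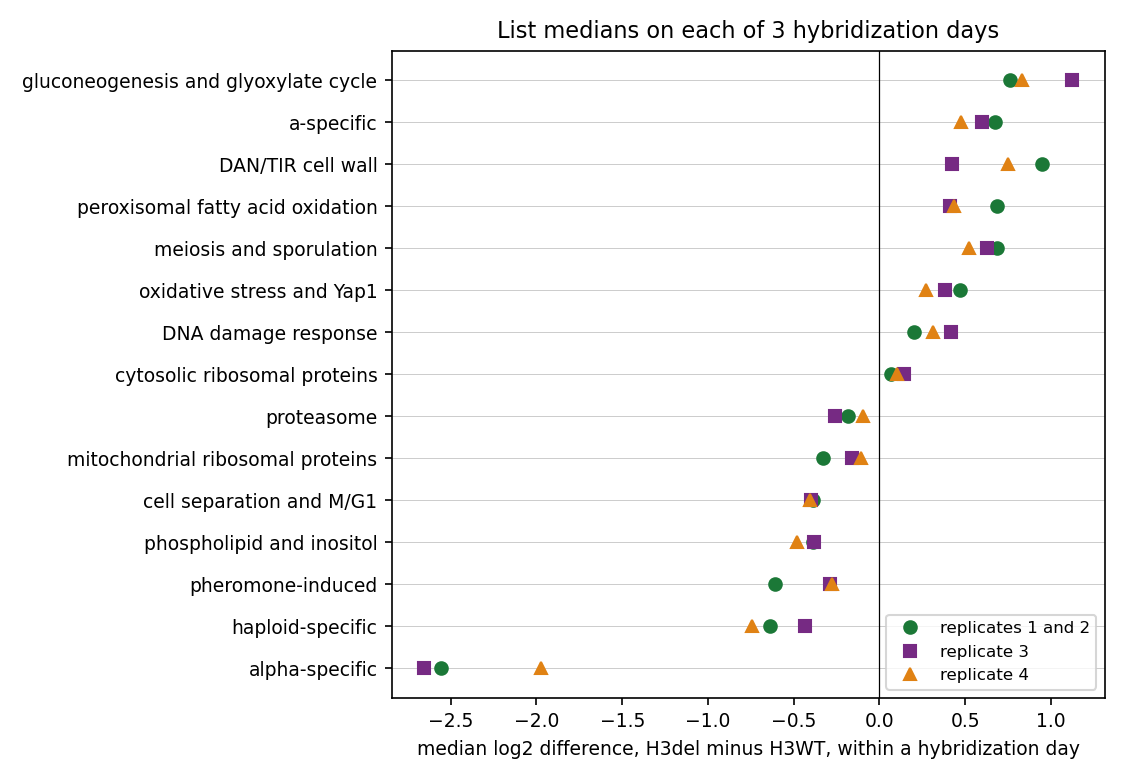
Median log2 difference (H3del minus H3WT) of 15 lists within each hybridization day, that of replicates 1 and 2, of replicate 3 and of replicate 4. These 15 were among the 33 of 46 lists whose median kept its sign on all 3 days, as for cell separation (-0.39, -0.40 and -0.40), while 13 lists not drawn turned, as for trehalose and glycogen (0.34, -0.38 and 0.16).

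The share of genes that rose was highest in the outermost genes of the chromosomes. Whether silencing has a part in this was not tested. Genes were ranked from the nearer end of their chromosome among annotated protein-coding genes. Of 47 tested genes of ranks 1 to 5 there were 17 higher (36.2%) and 2 lower, with a median log2 fold change of 0.38. At ranks 6 to 10 it was 21 of 112 (18.8%), at 11 to 20 it was 20 of 258 (7.75%) and at 21 to 40 it was 22 of 563 (3.91%). Beyond rank 40 there were 140 higher of 4046 (3.46%) and 114 lower, with a median of -0.02. That balance depends on the fit, with 362 higher and 433 lower under the day block, 290 and 321 under the replicate block and 130 and 133 under quantile normalization. The increases came from many ends, and 21 of 32 chromosome arms had a higher gene among their 10 outermost, at most 3 on an arm. Among the higher genes of ranks 1 to 5 were COS8 and the seripauperin genes PAU3, PAU4, PAU10, PAU15, PAU16 and PAU19. Signal shared by near-identical copies can count on several arms, so the arms are not separate measurements. Within the 3 days the median of ranks 1 to 5 was 0.49, 0.33 and 0.51. Without the arrays of replicates 1 and 2, 3 of the 159 tested genes of ranks 1 to 10 were higher, against 38 with all arrays, and their median was 0.18 against 0.23. Beyond rank 40 that fit gave 19 higher of 4046, against 140 with all arrays, and a median of -0.011. The median mean signal was 769 at ranks 1 to 5 and 1126 beyond rank 40. With the filter at the 50th percentile of signal ranks 1 to 10 held 18 higher of 96 with a median of 0.028. Beyond rank 40 that filter left 61 higher of 3091 with a median of -0.039.

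**Figure D5:**
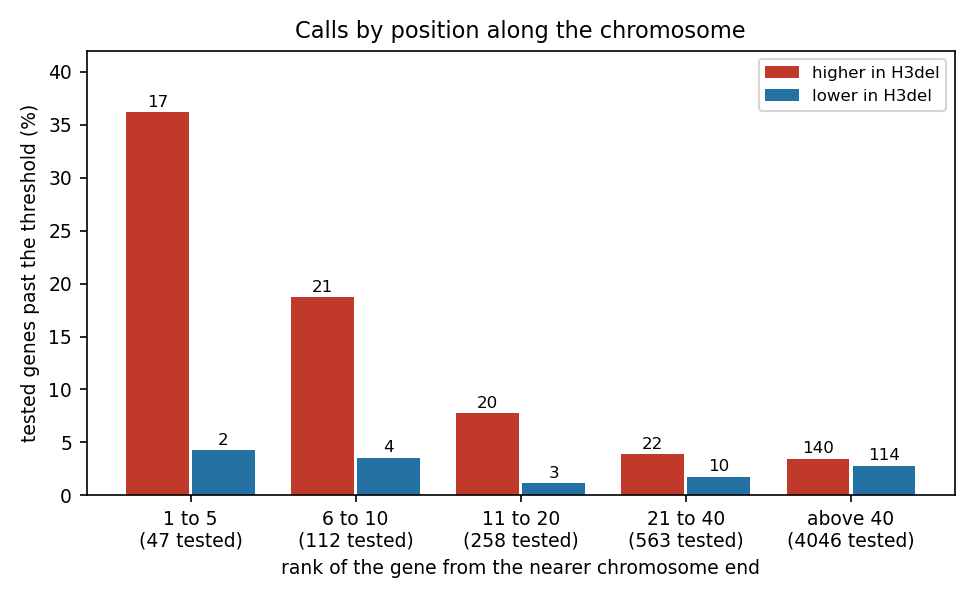
Share of tested genes that were higher or lower in H3del by rank from the nearer chromosome end, with counts above the bars and the number tested under them. The share higher is 36.2% at ranks 1 to 5 and 3.46% beyond rank 40.

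FLO10, PAU3 and FRE2 were among the 5 outermost genes of their arms, and so was COS8. COS8, of a subtelomeric membrane protein family, gave 8810.1, 9074, 5276 and 9342 in H3del and 3969.5, 4306, 3567 and 3242 in H3WT (1.08 ± 0.20). COS4 had 0.56 ± 0.16 with overlapping groups, and COS9 fell from 553, 357, 467 and 480.3 to 226, 262, 229.6 and 211 (-0.94 ± 0.21), so 2 of 5 tested COS genes rose and 1 fell. The other probe sets of COS9 gave 0.35 and -0.70. The COS genes are near-identical copies, so the values of single members are uncertain.

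Probe sets that cannot tell near-identical genes apart are common near chromosome ends and were examined separately. Of 258 that were tested and are annotated to several genes 39 were higher (15.1%) and 2 lower (0.775%). Of the 41 called, 31 had all their genes within the 20 outermost of an arm, against 63 of the 258 tested. The families below are named after their values were seen. The probe set of HPF1 and CSS1 gave 20917, 21328, 15308 and 16557 in H3del and 4542, 3891, 5062 and 2370.4 in H3WT (2.26 ± 0.23). That of DSF1 and MAN2, mannitol dehydrogenases, gave 1719, 2039.7, 1550.3 and 2005 against 353 to 553 (2.04 ± 0.20). That of the thiamine genes THI5, THI11, THI12 and THI13 gave 1664, 2038, 1256 and 1255 against 659.8, 525, 355 and 414 (1.64 ± 0.22). The groups did not overlap in these 3. DDI2 and DDI3, cyanamide hydratases, had 1.68 ± 0.22, the Hsp31 family set of HSP32, HSP33 and SNO4 1.63 ± 0.18, and the maltases MAL12 and MAL32 1.38 ± 0.24. The hexose transporter sets of HXT13, HXT15, HXT16 and HXT17 and of HXT9 and HXT11 had 1.27 ± 0.18 and 1.04 ± 0.24. PHO11 and PHO12, paralogs of PHO5, had 1.17 ± 0.21, and the vitamin B6 sets of SNZ2 and SNZ3 and of SNO2 and SNO3 1.12 ± 0.19 and 1.13 ± 0.25. Of 11 seripauperin sets 9 rose, by 0.62 to 1.06, and of 7 COS sets 3 rose. The 2 decreases were in the set of the cytosine permeases FCY2 and FCY22 (-0.60 ± 0.16) and that of the ribosomal protein genes RPS9A and RPS9B (-0.58 ± 0.16).

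Some called genes lay side by side. Among 4351 pairs of neighbouring tested genes 16 were both higher, 6 both lower and 7 called in opposite directions. A neighbour of a higher gene was itself higher in 9.20% of cases, beside 4.39% of all genes, and a neighbour of a lower gene lower in 5.31%, beside 2.6%. There were 4 runs of 3 genes called the same way, all higher. BIO5, BIO4 and BIO3 were one. URC2, of uracil breakdown, SPS2 and SPS1 formed another on chromosome IV, with 0.89, 2.46 and 1.71. GIP1, a meiotic regulator of the phosphatase Glc7, ZTA1, a quinone reductase, and FMP23, a mitochondrial protein, on chromosome II had 0.97, 0.90 and 1.65. HPA3, an acetyltransferase, SIT1 and AVT2, a vacuolar amino acid transporter relative, on chromosome V had 0.93, 1.04 and 0.87. Among the neighbours both lower were ICS2 and AMN1 on chromosome II. Whether transcripts of a neighbour reach a probe set was not tested.

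Probe sets without an annotated gene held changes too. Of 804 tested 61 were higher (7.59%) and 18 lower (2.24%). The most reduced gave 489, 511, 370.5 and 632 in H3del and 3634, 4037, 2190.4 and 2271 in H3WT (-2.53 ± 0.23). The most raised gave 938, 772, 479 and 195 against 74.7, 82.2, 71.4 and 68.1 (2.55 ± 0.46), and its H3del arrays differed from each other by more than 4-fold. Of 22 called genes that had several tested probe sets of their own, 20 had the same sign in all of them and 10 passed in all.

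Some genes passed with the day as a block and not without it. EGO4, of the complex that links the vacuole to TORC1, gave 1652, 1400.5, 3726 and 1322 in H3del and 3537, 3425, 5911 and 2602 in H3WT, with overlapping groups. Its within-day differences were -1.19, -0.66 and -0.97, and its adjusted p was 0.208 without and 0.000266 with the block. DSE1, another daughter-specific gene of cell separation, gave 179, 251, 564 and 479.5 against 549.8, 472, 971 and 981 and within-day differences of -1.20, -0.77 and -1.01 (adjusted p = 0.111, and 0.000441 with the block). CMC1, of cytochrome oxidase assembly, BET5, of vesicle tethering, and ADH5, an alcohol dehydrogenase, were the other lower genes with the smallest adjusted p, at -0.94, -0.73 and -1.16. On the higher side ZDS2, a regulator of a phosphatase in mitosis, FMP46, FCY21, MLG1 and ARO10, a decarboxylase of the Ehrlich route, had 1.04, 0.75, 0.90, 0.96 and 1.16. ZDS2 gave 1322, 1237, 897 and 1580.1 in H3del and 652, 702, 324 and 814 in H3WT, and every day's H3del arrays were the brighter.

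The H4 tail deletion, set against its own wild type, rests on 3 arrays a group and shares no array with the groups compared above. Replicate 3 of all groups was hybridized on the same day. Both deletions were tested in the same fit with a shared estimate of the spread, so their calls are not independent of each other. In the H4 comparison 1134 probe sets passed (17.5%). Of the 498 called in H3del 177 passed there too, which is 35.5% of the 498 and 15.6% of the 1134, and 163 of the 177 had the same sign. A direct test of the difference between the effects called 239 probe sets (3.68%), 86 of them among the 498. Without single arrays that count ran from 117, without H4del replicate 2, to 466, without H4WT replicate 3. FDH1 had -1.11 ± 0.20 in H4del, and the difference was 4.57 ± 0.27 (adjusted p = 4.81e-08). MLS1 had -0.99 ± 0.27 there and differed by 3.29 ± 0.35, SSA3 -1.14 ± 0.36 and 3.05 ± 0.48, and DAN1 -1.63 ± 0.53 and 3.30 ± 0.71. These 4 genes rose in H3del and fell in H4del, and the difference passed for each (adjusted p up to 0.0192). MLS1, SSA3 and DAN1 were picked after their values were seen. MF(ALPHA)1 fell in H4del (-3.98 ± 0.15) and differed by 3.74 ± 0.20, and RME1, a repressor of meiosis, had -0.62 in H3del (adjusted p = 0.167, and 0.0137 with the day block) and -4.67 ± 0.29 in H4del. The mitochondrially encoded OLI1 and COX1, subunits of the ATP synthase and of cytochrome oxidase, had 0.12 ± 0.65 and 0.36 ± 0.42 in H3del against -7.78 ± 0.75 and -6.65 ± 0.48 in H4del. Neither passed in H3del, and the standard error of OLI1 leaves changes of over 2-fold either way undetected. On the other side SPO11, which makes meiotic DNA breaks, had -0.10 ± 0.19 in H3del and 2.20 ± 0.21 in H4del, and NCA3, YGL204C, MRPL31 and the small nucleolar RNA SNR73 differed by -2.01 ± 0.43, -1.97 ± 0.31, -2.14 ± 0.30 and -2.14 ± 0.51 (H3 effect minus H4 effect). SAG1, STE3 and MF(ALPHA)2 had -2.57 ± 0.20, -2.92 ± 0.21 and -4.24 ± 0.24 in H4del, and their differences between the deletions did not pass (adjusted p = 0.866, 0.3 and 0.23).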

How the data were processed

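Total RNA of 14 samples was hybridized to Affymetrix S98 arrays, and the 8 arrays of H3del and H3WT, 4 a group by their titles, form the comparison. The deposited values are probe set signals, a linear intensity, that came from the authors' use of MAS5, per the submitters' processing notes, with version and settings not given in the sources used here. From these log2(signal + 16.9) was computed, the offset being the 10th percentile of all signals. Probe sets with a mean above the 30th percentile were tested, and control probe sets were left out. The number of arrays limits the precision.

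All 14 arrays were fitted with limma 3.58.1 in R 4.3.3 (lmFit and eBayes with a variance trend), as group means, so that both wild types and deletions share 1 estimate of the spread. P-values were adjusted by Benjamini-Hochberg over all 6492 tested probe sets, with a threshold of 0.05. Same-numbered arrays of both groups were hybridized on shared days per the file headers, and their deviations from the group means correlated at 0.356, 0.263, 0.638 and 0.596. The differently numbered arrays of the day that held replicates 1 and 2 correlated at 0.541 and 0.352, so the day pairs the arrays and numbers 1 and 2 cannot be told apart within it. Fits with the day or the replicate number as a block were made beside the main one.

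GEO's platform annotation, which can be old, names 1 gene for 6504 of the 9275 probe sets, several for 328 and none for 2443. A gene was read from its brightest own probe set, and 5121 genes were tested. RefSeq's table for assembly R64 gave names and gene order only, no coordinates and no sequence, and no promoter was searched. The genes named are the 15 largest changes each way without overlap, up to 5 members of each gene list with the smallest adjusted p among those past the threshold, all mating-type, histone and strain markers with a probe set of their own, the 5 each way with the smallest adjusted p that passed only with the day block, the 5 each way that differed most from H4del, and runs of 3 neighbours. The members and lists were chosen with earlier results of these data known. On simulated data the fit recovered 67% of 2-fold and 97% of 4-fold changes with 6 false calls of 170. There every group had the mean level of the wild types, and the noise of each array was independent. The real arrays share days and the H4 deletion has changes of its own, so these rates need not hold for them. The alternatives were other offsets, filters, scalings, blocks, sets of arrays and left-out arrays.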

Additional observations from a re-analysis of the deposited data

Results flagged for a closer look

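An array was set apart where its log2 signal lay so far from the other 3 of its group that the gap passed Dixon's 95% critical value for 4 samples. This held for 19 of 354 group checks over the genes and probe sets named, and chance gives about 1 in 20. Of these, 14 lay on replicate 3, which had a hybridization day of its own. In H3WT replicate 2 the signal was 24.9 for YAR068W. In H3WT replicate 3 the signals were 376 for FRM2, 4012 for ADE2, 63.7 for DAN1, 3852 for AMN1, 1004 for MRPL31, 1143 for BET5 and 9743 for ADH5. In H3WT replicate 4 the signals were 114 for SNR73 and 437 for the shared probe set of PHO11 and PHO12. In H3del replicate 3 the signals were 472 for MPC3, 228 for BAR1, 756 for PCK1, 258 for CIT3, 1159 for PET18, 5276 for COS8 and 1307 for the shared probe set of DDI2 and DDI3. In H3del replicate 4 the signals were 1242 for the shared probe set of HMLALPHA2 and HMRA2 and MATALPHA2 and 23438 for the shared probe set of HHT1 and HHT2.

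For 46 named genes the H3 effect differed from the H4 effect in limma's test of the difference at an adjusted p of 0.05. On the log2 scale the H3 effect minus the H4 effect was 7.90 for OLI1, 7.01 for COX1, 4.57 for FDH1, 4.04 for RME1, 3.74 for MF(ALPHA)1, 3.30 for DAN1, 3.29 for MLS1, 3.05 for SSA3, 2.85 for FAR1, 2.65 for ATR2, 2.29 for BIO4 and 2.14 for BAR1. Smaller differences were 2.14 for YAR068W, 2.10 for SNZ1, 2.04 for DAK2, 2.01 for ARO10, 1.94 for ADH2, 1.92 for POT1, 1.89 for SPS2, 1.84 for RNR3, 1.82 for CIT3, 1.80 for YNR064C, 1.79 for CAT2 and 1.61 for THI4. The smallest above 0 were 1.58 for AAD10, 1.45 for OYE3, 1.44 for FLO11, 1.40 for BNA4, 1.29 for FRM2, 1.22 for BIO3, 1.15 for GTT2, 1.11 for BIO5, 1.08 for FIT1, 1.03 for PHO3 and 0.96 for HPF1. Below 0 they were -3.58 for HMRA1, -2.30 for SPO11, -2.14 for SNR73, -2.14 for MRPL31, -2.01 for NCA3, -1.97 for YGL204C, -1.52 for BNA1, -1.14 for PCL9, -1.09 for SCW11, -1.04 for TNA1 and -0.90 for CTS1. HMRA1 was too dim for the main test, and its value comes from the fit of all probe sets.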

How the results depend on the processing

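The direction of all 119 named genes past the threshold was the same in every setting tried, 89 of them passed in all 14 fits that left out an array, and 288 of the 498 probe sets did. Blocks, other filters, no variance trend, the H3 arrays alone or a left-out H4 array cannot move the log2 fold change, so they do not check direction. The 119 do not include GIC2, MDH2, IDP2, SPS19, PXA2, PAU4, SPS4, SRX1, GPX2, TRR1 and FRE4, which were named after their values were seen. Leaving out an array of any group moved the count of 498 to between 330 and 567, the 338 higher ones to between 227 and 378, the 160 lower ones to between 98 and 189, and the 239 that differed between the deletions to between 117 and 466. The replicate block called 1045, of which 606 higher and 439 lower, and 1035 in the difference. The day block, which follows the shared hybridization days, called 1338 (732 and 606) and 1078. The 8 H3 arrays alone with that block called 1528 (827 and 701). The remaining settings were these. A filter at the 50th percentile called 250, of which 137 higher. No filter called 525 higher, and with the day block, chosen after seeing the data, 1540 (964 and 576) and 1066 in the difference. Quantile normalization called 368 in the difference. Leaving out the H3 arrays of the day of replicates 1 and 2, also chosen after seeing the data, called 61 (51 and 10) and 26, and of the day of replicate 4 called 90 lower and 135 in the difference, with fewer arrays in each. Values near 0 turned sign, and the cause was not tested: MFA2 to -0.052 and LYS2 to 0.055 under quantile normalization, LYS2 to 0.025 and SNR73 to 0.088 without the day of replicate 3, and another shared probe set of HHT1 and HHT2, at -0.21 with all arrays, to 0.042 without that of replicate 4. Without single arrays LYS2 ran from -0.094 to 0.10, OLI1 from -0.46 to 0.63, SNR73 from -0.34 to 0.076 and that probe set from -0.45 to 0.094. The difference of SNR73 from H4del lost its call in 6 such fits.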
